A study of Mus musculus with 5 samples.

Results

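The genes described here encode the autophagy machinery and the vacuolar H+-ATPase (V-ATPase), the proton pump that acidifies lysosomes. They were chosen by symbol among protein-coding genes: every symbol beginning with Atp6v or Map1lc3, or with Atg or Wipi followed by a digit, together with Ambra1, Rb1cc1, Ulk1, Ulk2, Becn1, Tfeb, Tfe3, Lamp1, Lamp2, Sqstm1, Gabarap and Gabarapl2. This gave 58 of the 55573 genes in the count table, 21900 of which were protein-coding. A read was counted for 57 of the 58 in at least 1 library, and 53 had enough counts to be tested.

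The measurements came from Neuro-2A (N2A), a neuroblastoma line of the mouse, grown in serum-containing medium and then transiently transfected with 60 pmol of siRNA. The 2 siCtl libraries (replicates 1 and 3) were from cells that received a commercial negative control siRNA, and the 3 siUpf1 libraries (replicates 1, 2 and 3) were from cells that received an siRNA against Upf1. UPF1 is the RNA helicase at the centre of nonsense-mediated mRNA decay (NMD), and the study lowered it to find the transcripts that NMD acts on in neural cells. RNA selected by its poly(A) tail was sequenced, and between 20402205 and 27717594 reads per library were assigned to genes.

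Autophagy encloses cytoplasm in a double membrane, the autophagosome, and delivers it to the lysosome. The ULK1 kinase complex starts the process, a phosphatidylinositol 3-kinase complex holding Beclin 1 and ATG14 marks the membrane, ATG9 and ATG2 supply lipid, and ubiquitin-like conjugation enzymes attach ATG8 proteins (the LC3 and GABARAP families) to it, where receptors such as p62 (Sqstm1) bring in cargo. The V-ATPase, built from a cytosolic V1 sector that hydrolyses ATP and a membrane V0 sector that carries protons, keeps the lysosome acidic, and the factors TFEB and TFE3 drive transcription of many genes of both systems. Neurons depend on this route because they do not dilute damaged proteins by dividing.

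Upf1 itself was lower in all siUpf1 libraries, with 5217 and 5243 normalised counts in siCtl replicates 1 and 3 and 2403, 2496 and 2449 in siUpf1 replicates 1, 2 and 3 (DESeq2 Wald test, log2 fold change -1.10, SE 0.051, adjusted p = 7.27e-101). Of a list of 12 neuron and neuroblastoma markers, 9 were above a mean of 100 normalised counts, Hand2, Gata3 and Th included. Nefl, Dcx and Nefm were not, with Nefm at 3 counts or fewer in every library. The summed level of that list was 3611 to 3662 CPM (the counts of a gene divided by its library's total and scaled alike in all libraries) in siCtl and 4411 to 4783 CPM in siUpf1. Lists of 4 astrocyte, oligodendrocyte, macrophage, fibroblast and endothelial markers each summed to at most 21.5 CPM in any library, and the macrophage list to at most 0.226 CPM. Among these markers, Mbp (oligodendrocyte), Pdgfra (fibroblast) and Pecam1 (endothelial) were also above a mean of 100 normalised counts. The part of the neuronal marker difference in the results below was not tested. In bulk RNA, fewer cells of a type and less RNA per cell cannot be told apart. The labels do not say that replicates were separate cultures, so p-values measure the spread between these libraries, which may be technical.

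The siRNA is shown first, because short matches to bases 2 to 8 of an siRNA strand (its seed, in capitals) can lower other mRNAs. The strand given for the Upf1 siRNA is identical to Upf1 mRNA, so its complement is the strand that can pair with that mRNA. Both read as follows, 5′ to 3′.
Upf1 siRNA, strand as given: uCAAGGUUccugauaauua
Upf1 siRNA, complementary strand: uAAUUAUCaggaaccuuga

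The site complementary to the seed of the first strand, AACCTTG, was present in the 3′ untranslated region (3′ UTR) of 5 of the 53 tested genes (9.43%), against 10.0% of 12507 tested protein-coding genes with such a region. These 5 windows, read from the representative transcripts of GENCODE M21 on build GRCm38 with the 7-base match in capitals, are given because they include the mRNAs with the 2 largest decreases of the set.
Atp6v1d, chr12:78843117-78843145, minus strand: acccacttggaAACCTTGccgctgttgtc
Atg14, chr14:47542760-47542788, minus strand: tgcactctcatAACCTTGtctgtgtagtt
Atg7, chr6:114859194-114859222, plus strand: aactcaataatAACCTTGgcattgccact
Map1lc3b, chr8:121598471-121598499, plus strand: ttaaagctgagAACCTTGacagccacgaa
Atg16l2, chr7:101288272-101288300, minus strand: ttggagactggAACCTTGgggatttgttt

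The log2 fold changes of these mRNAs were -1.55 for Atp6v1d, -1.05 for Atg14, -0.43 for Atg7, 0.024 for Map1lc3b and 0.33 for Atg16l2. Of the 5, 3 were called lower, 1 was called higher and 1 was not called, so the match did not go with a single direction. Over all tested protein-coding genes, 36.9% of those with the site and 25.3% of those without it were called lower, with median log2 fold changes of -0.10 and -0.015. The site of the complementary strand, GATAATT, was present in Atg5, Atp6v1g1, Lamp2, Atg9b and Ulk2, and in 7.81% of all these genes. Of these 5, 2 were called higher (Atg9b and Ulk2) and none lower. Over all tested protein-coding genes, 27.1% of those with this site and 26.4% of those without it were called lower. The shares called higher were 27.9% and 24.2%. All 3 siUpf1 libraries received this single siRNA, so matches to its seeds and the lower level of Upf1 cannot be told apart as sources of a change.

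Calls were made with DESeq2's Wald test fitted over all genes, at an adjusted p below 0.05. Of the 53 tested genes of the set, 28 were called (52.8%), against 43.7% of all 15581 genes tested and 50.5% of protein-coding genes tested. Levels were higher in siUpf1 for 12 genes (all genes, 21.4%) and lower for 16 (all genes, 22.3%). The siCtl and siUpf1 libraries did not overlap for 40 of the 53 (75.5%), against 68.5% of all genes tested. The median log2 fold change was -0.0091 over the set and -0.0008 over all genes. A change of 0.5 or more on the log2 scale, in either direction, was seen in 8 called genes (15.1%, all genes 18%). edgeR's quasi-likelihood test called the same 28 and 5 more (Atg5, Atg10, Tfeb, Atp6v0a2 and Atp6v1f), where it called 54.6% of all genes it tested. The share called was thus close to that of protein-coding genes as a whole, and calls went in both directions.

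**Figure D1:**
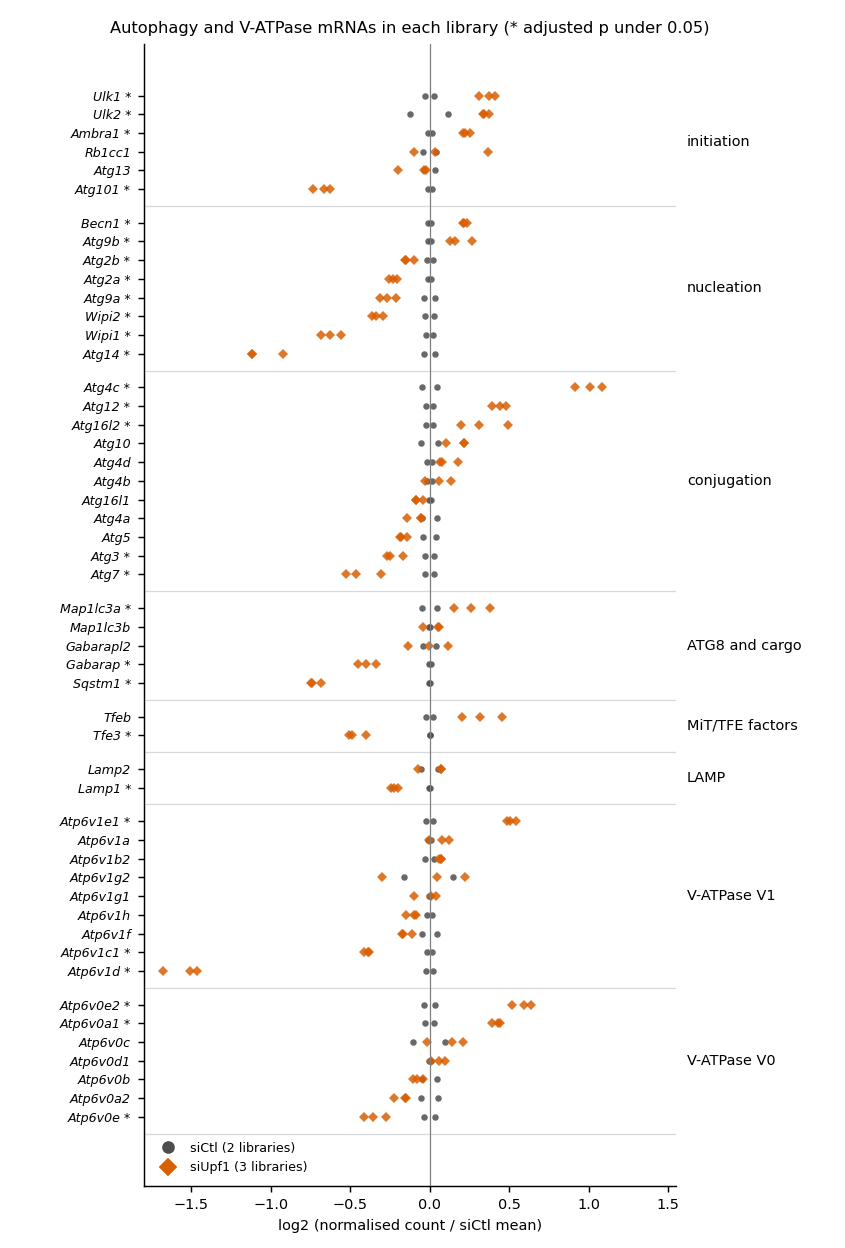
Each point is 1 library, placed on the horizontal axis by the log2 ratio of its normalised count to the siCtl mean of that gene, for tested genes whose mean was 50 normalised counts or more, grouped by role. Atp6v1d and Atg14 lie farthest to the left and Atg4c farthest to the right, while most V-ATPase subunits stay close to 0.

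Among all genes tested 43.7% were called, and among protein-coding genes tested 50.5%. Outside the V-ATPase, 22 of 34 tested genes were called (64.7%, 9 higher and 13 lower), and within it 6 of 19 (31.6%, 3 higher and 3 lower). The first share is above both of the shares over all genes and the second below both. The difference between the groups was not tested. With the replicate number as a block, 10 of the 28 calls were lost, all of them outside the V-ATPase. Calls over all genes tested also fell in that fit, to 32.0%, and siCtl has no replicate 2 to set beside that of siUpf1. The difference between the shares thus rests in large part on calls that were lost where calls fell in general. The V-ATPase group also includes Atp6v0a4, Atp6v1b1 and Atp6v1c2, with means of only 12.9, 13.7 and 8.80 normalised counts. The largest changes of the set are shown with their values in each library.

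**Figure D2:**
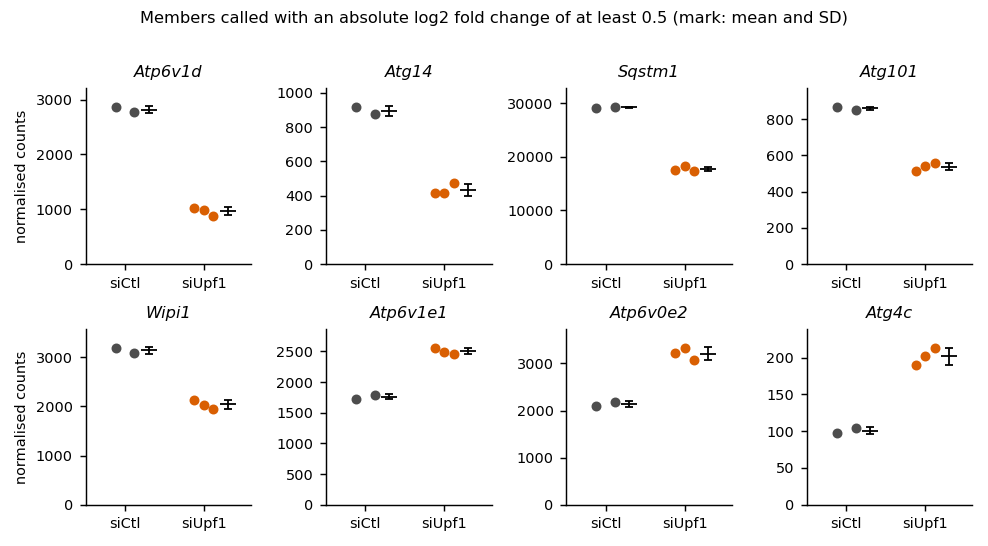
Normalised counts (vertical axes, each from 0) in the 2 siCtl and 3 siUpf1 libraries for the 8 called genes with an absolute log2 fold change of at least 0.5, with a mark for the mean and SD beside the points. In each panel the siUpf1 points lie wholly below siCtl (Atp6v1d, Atg14, Sqstm1, Atg101, Wipi1) or wholly above it (Atp6v1e1, Atp6v0e2, Atg4c).

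Among the 6 genes of the initiation complex, 3 were called higher (both kinases and Ambra1), 1 lower (Atg101, for a small adaptor that stabilises ATG13) and 2 were not called. Over all genes tested, 21.4% were called higher and 22.3% lower. Atg101 (chr15:101284272-101290945, plus strand) had 867 and 852 normalised counts in siCtl replicates 1 and 3 and 517, 541 and 556 in siUpf1 replicates 1, 2 and 3. The siUpf1 values did not reach those of siCtl and lay at 62.6% of the siCtl mean (log2 fold change -0.68, SE 0.10, adjusted p = 1.30e-11). Ulk1, the kinase that starts autophagosome formation, rose from 1008 and 1051 to 1332, 1278 and 1368 (log2 fold change 0.37, SE 0.076, adjusted p = 7.65e-06). The groups did not overlap. Its paralogue Ulk2 had 697 and 592 normalised counts in siCtl and 835, 816 and 812 in siUpf1 (log2 fold change 0.35, adjusted p = 0.00108). The siCtl values of Ulk2 differed more from each other than the siUpf1 values did, and without siCtl replicate 3 its adjusted p was 0.158. Ambra1, which links the ULK1 and Beclin 1 complexes, had a log2 fold change of 0.23 (SE 0.061, adjusted p = 0.000622). Atg13, the regulatory subunit, was not called, with an approximate 95% interval of -0.30 to 0.13 for its log2 fold change. Rb1cc1, which encodes the scaffold FIP200, was not called either (adjusted p = 0.647). Its siUpf1 replicate 1 stood at 1982 normalised counts, above the 1433 and 1569 of the other siUpf1 libraries and the 1493 and 1576 of siCtl.

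The genes that act in membrane nucleation and lipid supply were all called, 6 lower and 2 higher of 8, where 22.3% of all genes tested were called lower and 21.4% higher. Atg14 (chr14:47540893-47570649, minus strand) encodes the subunit that targets the phosphatidylinositol 3-kinase complex to autophagosome formation sites. It had 916 and 876 normalised counts in siCtl and 413, 413 and 472 in siUpf1, with a siUpf1 mean at 48.3% of the siCtl mean (log2 fold change -1.05, SE 0.10, adjusted p = 1.10e-22). Wipi1 (chr11:109573331-109611967, minus strand), a reader of the lipid this kinase makes, had 3190 and 3091 in siCtl and 2133, 2037 and 1957 in siUpf1 (log2 fold change -0.62, SE 0.060, adjusted p = 1.29e-23). Its relative Wipi2, which recruits the ATG16L1 complex, also fell (log2 fold change -0.33, SE 0.055, adjusted p = 1.28e-08). Becn1, the gene for Beclin 1, moved the other way, from 3560 and 3506 to 4085, 4163 and 4098 (log2 fold change 0.22, SE 0.049, adjusted p = 3.43e-05). Beclin 1 and ATG14 sit in the same kinase complex, and their mRNAs changed in opposite directions with no overlap between groups in either case. Such a lack of overlap was seen for 68.5% of all genes tested.

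The calls of the remaining nucleation genes were near the threshold and were lost when any of several libraries was left out. The lipid transfer proteins ATG2A and ATG2B had mRNAs with log2 fold changes of -0.23 and -0.13. The scramblases Atg9a and Atg9b, which form the vesicles that seed the autophagosome, had -0.27 and 0.18. Adjusted p-values over all libraries were 0.0232 for Atg2a, 0.0395 for Atg2b, 0.0171 for Atg9a and 0.049 for Atg9b. Omission of any of siCtl replicates 1 and 3 and siUpf1 replicates 1 and 3 removed each of these calls, and those of Atg2a, Atg2b and Atg9b were also lost without siUpf1 replicate 2. The adjusted p of the lost calls was then 0.0703 to 0.183 for Atg2a, 0.0656 to 0.286 for Atg2b, 0.0761 to 0.213 for Atg9a and 0.0688 to 0.252 for Atg9b. In the annotation, 31.8% of the exon bases of Atg9a are shared with another gene on the same strand, Gm29253, so reads there are uncertain.

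The 11 conjugation genes were mixed, with 3 called higher, 2 lower and 6 not called. Calls over all genes tested were mixed too, with 21.4% higher and 22.3% lower. The largest change by fold was in Atg4c (chr4:99193934-99259787, plus strand), 1 of 4 cysteine proteases that prime ATG8 proteins and release them from membranes. Its normalised counts were 97.5 and 104 in siCtl and 189, 202 and 213 in siUpf1, about 200.3% of the siCtl mean (log2 fold change 1.00, SE 0.19, adjusted p = 1.31e-06). The other proteases were not called, with log2 fold changes of -0.079 for Atg4a, 0.053 for Atg4b and 0.10 for Atg4d. Atg12, the ubiquitin-like protein joined to ATG5, rose from 1354 and 1393 to 1919, 1801 and 1867 (log2 fold change 0.44, SE 0.067, adjusted p = 4.84e-10). Its partner Atg5 had 1369 and 1291 in siCtl and 1173, 1167 and 1206 in siUpf1 and was just short of the threshold (log2 fold change -0.17, adjusted p = 0.0514). Atg7, the E1-like enzyme that activates both ATG12 and ATG8 proteins, fell from 622 and 645 to 440.2, 512 and 459 (log2 fold change -0.43, SE 0.11, adjusted p = 0.000262). The groups did not overlap for any of these 3 genes, as was the case for 68.5% of all genes tested.

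Atg3, the E2-like enzyme for ATG8 proteins, had a log2 fold change of -0.23 (adjusted p = 0.0165), and Atg16l2, a paralogue of the scaffold ATG16L1, had 0.33 (adjusted p = 0.0153). Both calls were lost when any of several libraries was left out. Without siCtl replicate 3 the adjusted p was 0.202 for Atg3 and 0.101 for Atg16l2, and without siCtl replicate 1 it was 0.078 and 0.149. Without siUpf1 replicate 3 it was 0.0876 and 0.0552. The call for Atg3 was also lost without siUpf1 replicate 1 (0.083) and that for Atg16l2 without siUpf1 replicate 2 (0.127). Atg16l1, the main scaffold, was not called (log2 fold change -0.072, approximate 95% interval -0.20 to 0.052), nor was Atg10, the E2-like enzyme for ATG12 (log2 fold change 0.18, adjusted p = 0.182).

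Of the ATG8 genes and the cargo receptor, p62 showed the largest decrease. Sqstm1 (chr11:50199366-50210827, minus strand), whose product binds ubiquitin and ATG8 proteins and is itself consumed by autophagy, had 29195 and 29283 normalised counts in siCtl and 17531, 18235 and 17417 in siUpf1. The siUpf1 libraries lay at 60.6% of the siCtl mean (log2 fold change -0.72, SE 0.038, adjusted p = 5.82e-79), a difference many times the spread within either group. Gabarap, an ATG8 protein involved in autophagosome maturation, fell from 2849 and 2877 to 2169, 2267 and 2098 (log2 fold change -0.40, SE 0.059, adjusted p = 1.56e-10). Gabarapl2 and Map1lc3b were not called, with approximate 95% intervals of -0.19 to 0.18 and -0.093 to 0.14 for the log2 fold change. Map1lc3b encodes LC3B, the common marker of autophagosomes, and its normalised counts were 2402 and 2391 in siCtl and 2496, 2489 and 2328 in siUpf1, overlapping between the groups. Map1lc3a, the gene for LC3A, had 675 and 719 in siCtl and 833, 907 and 776 in siUpf1 (log2 fold change 0.26, SE 0.10, adjusted p = 0.0167). That call was lost without siCtl replicate 1 (adjusted p = 0.212), siCtl replicate 3 (0.0691), siUpf1 replicate 1 (0.0535) or siUpf1 replicate 2 (0.122).

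Of the transcription factors of lysosome biogenesis, Tfe3 was called lower and Tfeb was not called. Tfe3 fell from 2149 and 2145 normalised counts in siCtl to 1527, 1625 and 1513 in siUpf1 (log2 fold change -0.47, SE 0.065, adjusted p = 6.30e-12). Tfeb had 213 and 207 in siCtl and 287, 261 and 242 in siUpf1, all siUpf1 values above siCtl, with a log2 fold change of 0.33 that DESeq2 did not call (adjusted p = 0.0775) and edgeR did (adjusted p = 0.0119). Lamp1, a heavily glycosylated protein of the lysosomal membrane, had 23830 and 23715 in siCtl and 20707, 20124 and 20325 in siUpf1 (log2 fold change -0.22, SE 0.036, adjusted p = 6.48e-09), a small decrease with no overlap. Lamp2, which serves fusion and chaperone-mediated autophagy, had 1624 and 1508 in siCtl and 1648, 1491 and 1647 in siUpf1. Its groups overlapped, and the approximate 95% interval of its log2 fold change was -0.11 to 0.17.

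In the V1 sector of the V-ATPase, 3 of 11 tested subunit genes were called (27.3%, against 43.7% of all genes tested). Atp6v1d (chr12:78840725-78861638, minus strand), the gene for subunit D of the central rotor stalk, had 2865 and 2777 normalised counts in siCtl and 1021, 992 and 881 in siUpf1. The siUpf1 libraries held 34.2% of the siCtl mean (log2 fold change -1.55, SE 0.073, adjusted p = 8.58e-97), the lowest fold change of the whole set. Atp6v1c1, for subunit C that joins the sectors when the pump assembles, fell from 3852 and 3768 to 2921, 2914 and 2862 (log2 fold change -0.39, SE 0.052, adjusted p = 2.43e-13). Atp6v1e1 (chr6:120794305-120822793, minus strand), for subunit E of the peripheral stalks, rose from 1729 and 1787 to 2556, 2490 and 2460 (log2 fold change 0.51, SE 0.060, adjusted p = 4.07e-16). The subunits of the ATP-hydrolysing head were not called. Atp6v1a had a log2 fold change of 0.067 (approximate 95% interval -0.035 to 0.17) and Atp6v1b2 had 0.067 (-0.016 to 0.15). Atp6v1f (-0.15), Atp6v1h (-0.11), Atp6v1g1 (-0.018) and Atp6v1g2 (0.010) were not called either. The highest fitted log2 fold change of the sector belonged to Atp6v1c2 (0.66, SE 0.81), with only 6.29 and 6.6 normalised counts in siCtl and 8.0, 15.1 and 8.02 in siUpf1, too few to show a difference (adjusted p = 0.552). Atp6v1b1 was also low, with 15.7 and 7.55 in siCtl and 16, 17.6 and 11.6 in siUpf1.

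Of 8 tested V0 genes, 3 were called (37.5%, against 43.7% of all genes tested). Atp6v0e2 (chr6:48537615-48541801, plus strand), for a small membrane subunit e, had 2087 and 2189 normalised counts in siCtl and 3223, 3330 and 3064 in siUpf1 (log2 fold change 0.58, SE 0.060, adjusted p = 2.84e-21). Its paralogue Atp6v0e moved the opposite way, from 1674 and 1754 to 1341, 1419 and 1289 (log2 fold change -0.35, SE 0.071, adjusted p = 6.04e-06). The groups of both paralogues were apart, as they were for 68.5% of all genes tested. Atp6v0a1, the subunit a that is prominent in neurons, rose from 4359 and 4185 to 5600, 5760 and 5794 (log2 fold change 0.42, SE 0.047, adjusted p = 1.34e-17). Atp6v0a2, the Golgi-associated subunit a, had -0.18 (adjusted p = 0.0811). The proton-binding ring subunits Atp6v0b and Atp6v0c and the stalk subunit Atp6v0d1 were not called, with approximate 95% intervals of -0.18 to 0.029, -0.11 to 0.33 and -0.045 to 0.15. Atp6v0a4 had the lowest fitted value of the sector (-0.68, SE 0.66), with 12.6 and 20.8 normalised counts in siCtl and 8.0, 8.79 and 14.3 in siUpf1, and was not called (adjusted p = 0.436). The genes not tested were Atp6v0d2, with 0 counts in every library, and Atp6v1g3, Atp6v1e2, Atp6v1fnb and Atg4a-ps, each with a mean under 10 normalised counts.

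Since the subunits form 1 complex, their mRNA levels were also set side by side per length, as normalised counts per kilobase (kb) of all annotated exons merged. The order depends on that length, so it was also taken, as an alternative chosen after seeing the data, with the length of the coding sequence and 3′ UTR of 1 representative transcript. Among the 15 subunits whose mean was 100 normalised counts or more, Atp6v0a2 had the lowest level by either length (147 ± 7.48 per kb of merged exons in siCtl, SD, n = 2). The highest was Atp6v0d1 per kb of merged exons (2269 ± 15.6) and Atp6v0b per kb of representative transcript. Atp6v1d had 613 ± 13.4 per kb of merged exons in siCtl and 209.6 ± 16.1 in siUpf1 (SD, n = 3). It moved from place 10 of 15 to place 13, or from place 12 to place 14 with the transcript length. Atp6v1e1 moved up by either length, from place 12 to 9 or from 7 to 4.

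**Figure D3:**
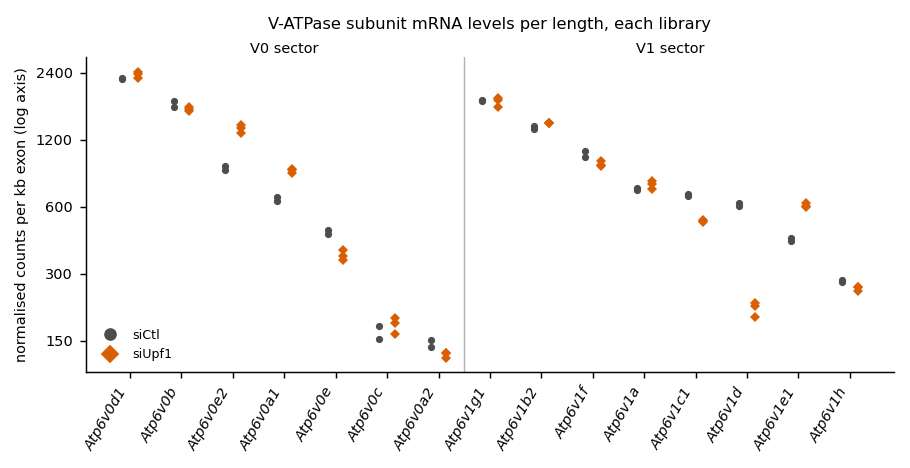
Normalised counts per kb of merged exons (vertical log axis) for 15 V-ATPase subunits, V0 on the left and V1 on the right, ordered by siCtl level, with 1 point per library. The siUpf1 points of Atp6v1d fall clear of siCtl, those of Atp6v0e2, Atp6v0a1 and Atp6v1e1 rise clear of it, and most other subunits lie side by side.

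Several of these genes are members of small families, so each paralogue's share of its family's counts per kb was compared between groups. With 2 libraries against 3, an exact permutation test cannot give a p under 0.1, and that smallest value was reached by all the shifts given here except where another p is stated. Of the subunit e total, Atp6v0e2 gave 66% ± 0.0161 (SD, n = 2) for siCtl against 78.7% ± 0.203 (SD, n = 3) for siUpf1. Of the subunit a total, in which Atp6v0a2, Atp6v0a4 and Tcirg1 were counted, Atp6v0a1 gave 70.7% ± 0.293 (SD, n = 2) for siCtl against 78.1% ± 0.484 (SD, n = 3) for siUpf1. The balance of these subunits thus shifted towards Atp6v0e2 and Atp6v0a1, while the sums over each family stood at 126% and 121% of siCtl. In the E, C and G subunits of V1 and the d subunit of V0, a single paralogue gave over 98% of the counts per kb in every library, so the levels of Atp6v1e1 and Atp6v1c1 carried over to their families (142% and 76.5% of siCtl).

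Among the autophagy families, the ATG4 protease total held a share of Atg4c of 7.11% ± 0.327 (SD, n = 2) for siCtl against 13.1% ± 0.565 (SD, n = 3) for siUpf1. Within the ATG8 family, in which Gabarapl1 was also counted, Gabarap gave 39.3% ± 0.0723 (SD, n = 2) for siCtl against 33.9% ± 0.332 (SD, n = 3) for siUpf1, and Map1lc3a gave 14.9% ± 0.535 (SD, n = 2) for siCtl against 20.4% ± 0.655 (SD, n = 3) for siUpf1. The ATG8 sum was 88.1% of siCtl. Of the 4 WIPI genes, Wipi1 gave 38.2% ± 0.478 (SD, n = 2) for siCtl against 29.2% ± 1.52 (SD, n = 3) for siUpf1. Of the ATG9 pair, Atg9b gave 68.6% ± 0.516 (SD, n = 2) for siCtl against 74.9% ± 0.644 (SD, n = 3) for siUpf1, and the ATG9 sum was 104% of siCtl. Of the MiT/TFE factors, whose sum was 81.3% of siCtl, Tfe3 gave 79.7% ± 1.45 (SD, n = 2) for siCtl against 70.9% ± 2.02 (SD, n = 3) for siUpf1, and Tfeb gave 12.7% ± 0.0184 (SD, n = 2) for siCtl against 19.6% ± 1.29 (SD, n = 3) for siUpf1. The shares of the ULK pair overlapped between the groups. Ulk1 gave 59.6% ± 3.47 (SD, n = 2) for siCtl against 59.8% ± 0.913 (SD, n = 3) for siUpf1 (exact permutation p = 1.0), and the sum of both kinases was 128% of siCtl. For Atg16l2 the shares were 19.8% ± 0.253 (SD, n = 2) for siCtl against 24.7% ± 2.18 (SD, n = 3) for siUpf1 (exact permutation p = 0.2). Reads of near-identical copies could be split or dropped in counting, so shares between close paralogues are uncertain. The ATG9 shares are also uncertain because 31.8% of the exon bases of Atg9a are shared with Gm29253. The size of a share also depends on the merged exon length, but the largest shift in each family had the same sign in counts not divided by length.

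**Figure D4:**
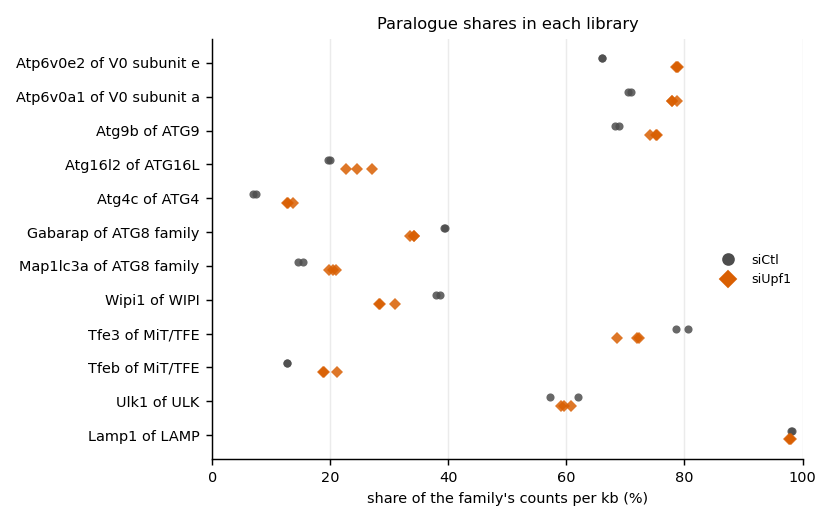
Share of a family's normalised counts per kb (horizontal axis, percent) given by 1 paralogue in each of the 2 siCtl and 3 siUpf1 libraries. The points of the groups are apart for Atp6v0e2, Atp6v0a1, Atg9b, Atg16l2, Lamp1, Atg4c, Gabarap, Map1lc3a, Wipi1, Tfe3 and Tfeb, and overlap for Ulk1.

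TFEB and TFE3 bind the E-box CACGTG, and TCACGTGA is an extended form found in lysosomal promoters. Both are palindromes, so each reads alike on either strand, and every TCACGTGA also holds CACGTG. RefSeq promoters (build GRCm38.p6, 250 bases before to 50 after the start) matched 46 of the 58 genes, 43 of them tested. The others were Atg12, Atg16l1, Atg4a-ps, Atp6v0a2, Atp6v0d2, Atp6v1b2, Atp6v1c1, Atp6v1g1, Atp6v1h, Becn1, Map1lc3a and Rb1cc1. CACGTG was found in 9 of the 43 tested genes (20.9%) and in 11.6% of tested protein-coding genes with a promoter. TCACGTGA was found in 4 of the 43 (9.30%, against 2.10%). Those 4 windows and the window of Atg14, the gene with the largest decrease among the 9, are given with the match in capitals.
Atg3, chr16:45158717-45158804, plus strand: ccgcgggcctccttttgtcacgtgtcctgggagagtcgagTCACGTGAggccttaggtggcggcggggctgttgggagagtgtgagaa
Atp6v0d1, chr8:105566021-105566108, minus strand: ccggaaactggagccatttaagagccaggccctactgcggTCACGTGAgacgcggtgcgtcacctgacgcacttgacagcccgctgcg
Atp6v0e, chr17:26676358-26676445, plus strand: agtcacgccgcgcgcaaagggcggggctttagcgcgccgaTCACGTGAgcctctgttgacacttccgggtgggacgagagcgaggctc
Atp6v1a, chr16:44139344-44139431, minus strand: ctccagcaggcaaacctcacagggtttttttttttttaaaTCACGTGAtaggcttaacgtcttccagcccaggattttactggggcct
Atg14, chr14:47568390-47568475, minus strand: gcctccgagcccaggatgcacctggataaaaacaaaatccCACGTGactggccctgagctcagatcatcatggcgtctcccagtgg

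Of the 9 genes with CACGTG, 5 were called lower (Atg14, Atg7, Atp6v0e, Atg3 and Lamp1), none was called higher, and Atg5, Atp6v0b, Atp6v0d1 and Atp6v1a were not called. edgeR called Atg5 as well, also lower. Their median log2 fold change was -0.22, against 0.027 for the tested genes whose promoter lacked the match. Among all tested protein-coding genes with CACGTG, 354 were called lower and 268 higher of 1171. The median log2 fold change of these genes was -0.055, against -0.019 for those whose promoter lacked the match. A match in these letters is not evidence of binding. Atp6v1d and Sqstm1 had a promoter entry and no CACGTG in this window. Of the genes called lower, Atg14 and Atg7 also hold the siRNA seed site AACCTTG shown above. The call of Atg3 was lost when any of several libraries was left out.

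UPF1-dependent decay is known to act on transcripts with premature stop codons and on some with long 3′ UTRs, so these annotations were compared too. GENCODE M21 lists an NMD isoform for 12 of the 53 tested genes (22.6%), against 28.4% of tested protein-coding genes. Of these 12, 3 were called higher (Ulk1, Becn1 and Atg16l2), 3 lower (Atp6v1c1, Atg9a and Tfe3) and 6 were not called. Of tested protein-coding genes with an NMD isoform, 22.9% were called higher and 28.8% lower. Of those without it, the shares were 24.7% and 25.3%. None of the 8 called genes with an absolute log2 fold change of 0.5 or more has such an annotation, while Atp6v1c2, which was not called, has one. The median length of the representative 3′ UTR was 1360.5 nt in the 12 genes called higher and 788.5 nt in the 16 called lower. The same medians over all tested protein-coding genes were 1455.5 and 814 nt, the same order as in the set.

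The pathway was followed further in 123 autophagy and lysosome genes outside the naming rule, in 7 lists. Of 119 tested, 27 were called higher and 42 lower (58%, against 43.7% of all genes tested and 50.5% of protein-coding genes tested). Fewer were called in either direction without siCtl replicate 3. The longest list, 39 tested enzymes and activators of the lysosomal lumen, had 7 called higher, 17 lower and 15 not called, with a median log2 fold change of -0.16. Without siUpf1 replicate 3 its counts were 6 higher and 13 lower. At the ends of this list were Gla, alpha-galactosidase A, with 600.2 ± 9.55 normalised counts (SD, n = 2) for siCtl against 226 ± 16.7 (SD, n = 3) for siUpf1 (log2 fold change -1.41, SE 0.13, adjusted p = 4.06e-27), and Ids, iduronate 2-sulfatase, with 97.6 ± 7.26 normalised counts (SD, n = 2) for siCtl against 194 ± 17.8 (SD, n = 3) for siUpf1 (log2 fold change 0.99, SE 0.20, adjusted p = 4.05e-06). Of 15 tested cargo receptors and related proteins, 8 were called lower and 1 higher. Retreg1, a receptor for endoplasmic reticulum turnover, was the lowest with 308 ± 51.7 normalised counts (SD, n = 2) for siCtl against 175 ± 11 (SD, n = 3) for siUpf1 (log2 fold change -0.81, SE 0.17, adjusted p = 5.24e-06). Optn, for optineurin, was the only one called higher (log2 fold change 0.25, adjusted p = 0.00351), and not without siCtl replicate 3 (adjusted p = 0.202). Over all genes tested 22.3% were called lower and 21.4% higher, and the lists were not tested against these shares.

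The list of phosphatidylinositol 3-kinase partners also held the kinase gene Pik3c3 and other early autophagy genes, Wdr45, Wdr45b, Zfyve1, Vmp1 and Tmem41b. Those called higher were Rubcn, Uvrag, Nrbf2 and Sh3glb1, and those called lower were Pik3r4, Wdr45, Vmp1 and Tmem41b. The list thus had 4 called higher and 4 lower of 11. Without siCtl replicate 3 these counts were 2 and 2, and without siCtl replicate 1 they were 3 and 2. Sh3glb1, a membrane-bending partner of Beclin 1, rose (log2 fold change 0.65, SE 0.059, adjusted p = 2.01e-26), and Pik3r4, the kinase-like scaffold of the complex, fell (log2 fold change -0.65, SE 0.095, adjusted p = 8.01e-11). Of 14 tested fusion genes, 4 were higher and 3 lower. Without siCtl replicate 1, siCtl replicate 3 or siUpf1 replicate 1 only 2 were higher, and without siCtl replicate 3 only 2 were lower. At the ends of this list were 2 SNARE genes of autophagosome fusion, Stx17 with 477 ± 13.7 normalised counts (SD, n = 2) for siCtl against 653 ± 7.49 (SD, n = 3) for siUpf1 (log2 fold change 0.45, SE 0.10, adjusted p = 3.76e-05) and Vamp8 with 224 ± 2.97 normalised counts (SD, n = 2) for siCtl against 116 ± 2.16 (SD, n = 3) for siUpf1 (log2 fold change -0.95, SE 0.18, adjusted p = 1.29e-06). Of the other SNARE genes in the list, Ykt6 was called higher (log2 fold change 0.28) and Snap29 was not called (-0.036). Of 18 membrane and transport proteins, 5 were higher (3 without siCtl replicate 3) and 4 lower, between Ctns, the cystine exporter (log2 fold change 0.66, adjusted p = 8.24e-05), and Cln3, a membrane protein whose loss causes a form of Batten disease (-0.78, adjusted p = 2.28e-14). V-ATPase assembly and accessory genes had 4 higher and 1 lower of 11, where 21.4% of all genes tested were called higher. Omitting siCtl replicate 1 lowered the number higher to 2, and omitting siUpf1 replicate 2 raised it to 6. Of the 4, only Ncoa7 was called whichever library was left out. The adjusted p of the other 3, named after their values were seen, reached 0.0853 for Atp6ap1, 0.103 for Ccdc115 and 0.0568 for Oxr1 with a library left out. Ncoa7, which binds the V1 sector, went from 251 and 268 normalised counts in siCtl to 985, 851 and 955 in siUpf1 (log2 fold change 1.84, SE 0.11, adjusted p = 9.91e-59), the largest change among all 119, and Wdr7 of the RAVE-like assembly complex fell (log2 fold change -0.30, adjusted p = 0.000267). Of 11 tested genes that control these programmes, 2 were higher and 5 lower (3 without siCtl replicate 3). The folliculin partners Fnip1 and Fnip2, which act in amino acid signalling to TFE3 and TFEB, had log2 fold changes of -0.73 (SE 0.086, adjusted p = 3.40e-16) and 0.51 (SE 0.070, adjusted p = 1.76e-12).

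**Figure D5:**
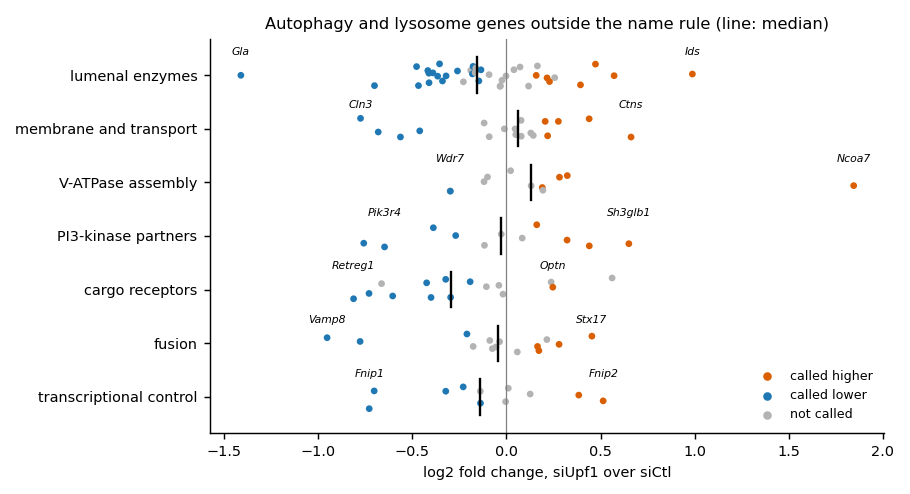
Log2 fold change of siUpf1 over siCtl (horizontal axis) for the tested genes of the 7 lists outside the naming rule, with 1 point per gene, coloured by its call, the median as a line, and the named gene at each end. Points of the lumenal enzymes and cargo receptors lie mostly left of 0, and Ncoa7 stands apart on the right.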

How the data were processed

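RNA-seq counts from 2 siCtl and 3 siUpf1 libraries of N2A cells were used. The authors deposited raw counts per gene, not normalised or pooled, made from fastp-filtered reads mapped to GRCm38.p6 with STAR 2.7.0f and assigned to exons, reverse-stranded, by featureCounts (Subread 1.6.4). The submitters' processing notes also name bcl2fastq 2.19.0, DESeq2 1.22.1 and R 3.5.1. Total counts per library are given above, and counts do not show which reads are PCR duplicates.

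Here, DESeq2 1.42.0 (R 4.3.3) was fitted to all genes on group alone, with its default size factors and filtering and p-values adjusted by Benjamini-Hochberg, as the study's methods name this tool. Calls were made at an adjusted p below 0.05. SE is that of the log2 fold change, and approximate 95% intervals were set from it with the normal distribution. edgeR 4.0.16 (quasi-likelihood test), TMM and total-count scaling (also without mitochondrial genes and Gm42418), a minimum of 10 counts in 2 libraries, no filter, a block for the replicate number, and omission of each library were the alternatives, and another gene length for V-ATPase levels was added after seeing the data. The fits were tested on simulated data. Lengths, positions, 3′ UTRs of at least 50 nt (1 representative transcript per gene) and NMD isoforms came from GENCODE M21, also on GRCm38, and promoters from RefSeq. All 58 genes were matched in GENCODE M21.

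The genes, the pathway lists and the markers were chosen with earlier results of these data known. Every gene of the set could be named. Values in each library are given for called genes with an absolute log2 fold change of at least 0.5 and for the highest and lowest tested gene of each role, and from each pathway list the highest and lowest called genes whose mean was 100 normalised counts or more were named. Values of a few further genes of the set were added after they were seen.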

Additional observations from a re-analysis of the deposited data

How the results depend on the processing

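Of 382 values of 33 named genes under 12 alternatives, 371 kept their direction and side of the threshold, 9 lost the call, 1 gained it (Tfeb under edgeR) and 1 changed sign (Lamp2, whose log2 fold change ran from -0.026 without siCtl replicate 3 to 0.080 without siCtl replicate 1). No alternative called any of the 28 genes the other way, and 18 of them were called in all 12. With the replicate number as a block, 3935 of all genes were called (1964 higher and 1971 lower, 32.0% of those tested), 18 of the set (6 higher, without Ambra1, Becn1, Ulk2, Map1lc3a, Atg2a, Atg2b, Atg3, Atg9a, Atg9b and Atg16l2), and 43 of the pathway genes (15 higher). Libraries of the same number did not deviate together, with correlations of -0.0861 (number 1) and -0.0748 (number 3) over 11898 genes, so the numbers were not taken to pair them. Leaving out each library in turn gave 17 to 27 pathway genes called higher. Over these omissions the shift in share, in percentage points of siUpf1 minus siCtl, ran from -0.116 to 0.0273 for Atp6v1b2, -0.381 to 0.715 for Atp6v1e1, -0.136 to 0.199 for Atp6v1g2 and -2.24 to 2.67 for Ulk1, whose signs were thus not fixed. The set had 20 to 23 genes called over the same omissions. Leaving out a siCtl library left 1 in that group, whose spread was assumed to be that of siUpf1, so that with 2 siCtl libraries calls with small fold changes rest on few data.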

Other observations

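Beyond the genes named by rule, 3 were chosen after their values were seen, because each is a partner of a gene described above. Groups that do not overlap are thus no separate support for them, and the groups did not overlap for 68.5% of all genes tested. Nbr1, an autophagy receptor related to p62, had 4214 and 4307 normalised counts in siCtl and 2633, 2513 and 2556 in siUpf1 (DESeq2, log2 fold change -0.73, SE 0.053, adjusted p = 7.74e-42), close to the log2 fold change of -0.72 for Sqstm1. Gabarapl1, the ATG8 gene that the naming rule did not take in, fell as Gabarap did, from 2288 and 2240 to 1804, 1888 and 1745 (DESeq2, log2 fold change -0.32, SE 0.063, adjusted p = 1.76e-06). Flcn, for folliculin, the partner of FNIP1 and FNIP2, had 1701 and 1662 in siCtl and 1018, 988 and 1089 in siUpf1 (DESeq2, log2 fold change -0.70, SE 0.075, adjusted p = 8.94e-20). The groups did not overlap for any of the 3, and each was still called with any 1 library left out, the largest adjusted p being 9.11e-18 for Nbr1, 0.00316 for Gabarapl1 and 6.42e-09 for Flcn.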
